A study of Mus musculus with 20 samples.

Results

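The injured left hemisphere was compared with the uninjured right hemisphere of the same 5 mice, all given the peptide IDR1018, across every gene on the array. The samples were taken by their labels as the 5 injured left and 5 uninjured right arrays of peptide-treated animals, which are 10 of the 20 arrays of the series. The strain was C57/Bl6, the animals were adult, and the brains were taken out and frozen on dry ice before total RNA was extracted and hybridised to an Affymetrix mouse gene array. Every animal of the series had been sensitised with lipopolysaccharide (LPS), a bacterial cell wall component that triggers innate immunity, and then put through hypoxia-ischemia (HI), which injures the left side. The other 10 arrays are the left and right hemispheres of 5 mice with LPS and HI but no peptide. IDR1018 is a synthetic innate defence regulator peptide, designed after natural host defence peptides. Its dose, the time of sampling and the sex of the animals are not given in the labels. The right hemisphere also saw LPS, hypoxia and the peptide, so it is the uninjured side of a treated animal and not tissue of a sham or naive mouse.

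In the LPS and HI model, LPS primes resident immune cells of the brain before a carotid artery is closed and the animal breathes air low in oxygen. Injured tissue is known for rapid release of chemokines and cytokines by microglia and astrocytes, for induction of heat shock and other stress genes, and for lower levels of neuronal transcripts. In bulk tissue, fewer cells of a type and less RNA per cell cannot be told apart, which applies to every decrease given here.

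The labels give both hemispheres of an animal the same specimen number, and the animals are called 1 to 5 by their replicate number. Median log2 intensity ran from 8.21 to 8.23 on the left arrays and from 8.20 to 8.23 on the right, and any pair of the 10 arrays correlated at 0.994 to 0.998 over probe sets. The control probe sets were picked by number, as the block that precedes the first probe set listed in the annotation. Whether they read no mouse transcript was not tested, so their median is a reference level and not a measured background. When they were included in the fit, 196 of 6568 were called. Their array medians were 6.68 to 6.86 on the left and 6.79 to 6.93 on the right, and the 2 ranges overlapped. All left arrays of the series carry array numbers 1 to 10 and all right arrays 11 to 20, and array order and hemisphere therefore cannot be told apart. Brain markers were present. All 4 neuronal, 5 astrocyte, 3 oligodendrocyte and 4 microglial markers measured were above the control median on all 10 arrays, as were 4 of 4 choroid plexus markers and 2 of 3 cerebellar markers. Precision is limited by the number of arrays.

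The injured hemisphere differed widely from the uninjured one, and the strong differences were nearly all increases. Of 28192 probe sets tested with limma, 4184 (14.8%) passed a Benjamini-Hochberg adjusted p of 0.05, with 2191 higher and 1993 lower on the injured side. Counted by gene, 1818 of 19937 genes rose (9.12%) and 1587 fell (7.96%). The median increase among them was 0.23 and the median decrease -0.20 on the log2 scale, against a median of -0.02 over all genes. An increase of at least 1.5-fold was seen for 108 genes and a decrease of that size for 8, and 33 genes rose at least 2-fold while 0 fell by that much. All 5 left arrays lay above all 5 right arrays for 1701 genes (8.53% of all) and below them for 1508 (7.56%), and 2741 of the 3405 changed genes were separated in this way. Both group means lay below the control median for 113 of the 3405. Left out as whole animals, animals 2, 3 and 4 moved the count of changed probe sets most, to 2323, 2732 and 2606. When the control median of each array was added as a covariate, the higher calls numbered 1689 and the lower calls 1232.

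The 15 leading increases and 15 leading decreases were chosen among called genes with 1 sign in all 5 animals, so that their shared sign is no finding. Ccl3 stood far above the rest at 4.16 ± 0.14 (log2 difference, left minus right, ± standard error), and the other leading increases ran from 2.21 for Ccl2 down to 1.29 for Plek, a protein of phagocyte signalling. The largest decreases were Mir421 (-0.90 ± 0.17) and Slco1a4 (-0.81 ± 0.10), and the smallest of the leading decreases was Pcdh20 (-0.56 ± 0.07). Falls were thus smaller than rises throughout the leading genes.

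**Figure D1:**
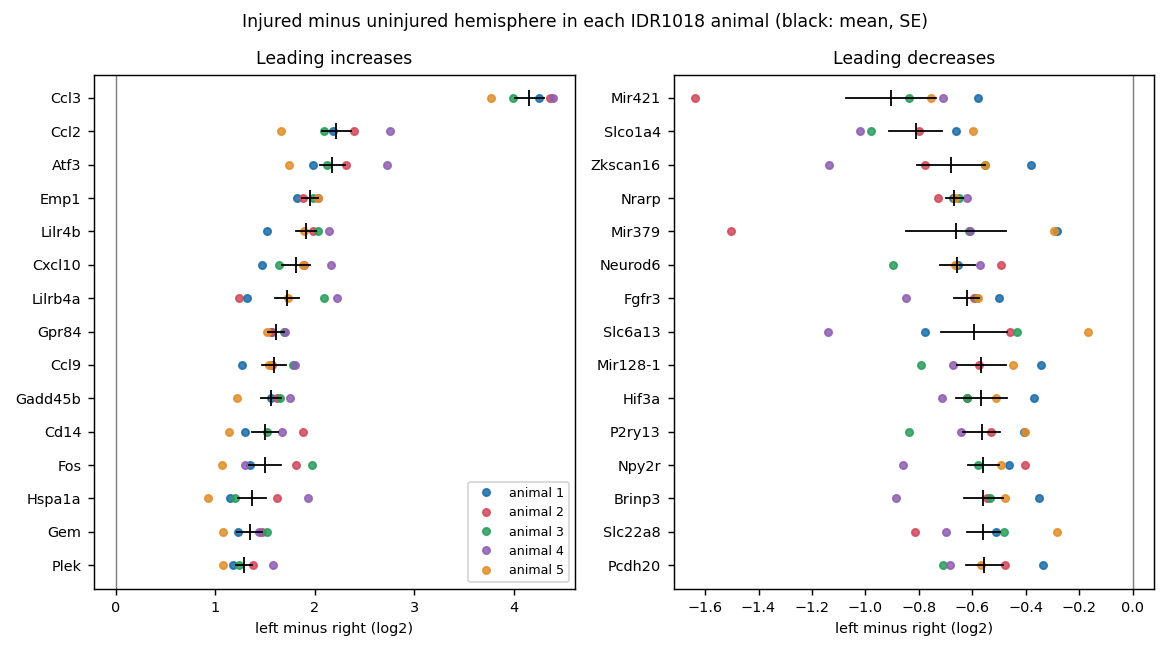
Log2 difference between injured left and uninjured right hemisphere (x axis) for the 15 genes with the largest increase and the 15 with the largest decrease (y axis); coloured dots are the 5 animals, black ticks the mean and black bars the standard error of the limma fit. Ccl3 lies between 3.77 and 4.39 in the 5 animals; the genes were chosen for 1 sign in all 5.

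Of 56 gene lists, those of inflammation and cell stress held the largest shares of increases and those of neuronal signalling the largest shares of decreases. The lists share some genes, so their counts are not independent. Each list count stands against 9.12% of all genes higher and 7.96% lower. Reactive astrocyte genes led the increases with 17 of 22, followed by heat shock chaperones (11 of 16), activated microglia (13 of 20) and immediate early transcription factors (14 of 22). Axon guidance genes led the decreases with 16 of 24, followed by striatal projection neuron genes (8 of 13), homeostatic microglia (7 of 13), glutamate receptor subunits (10 of 20) and voltage-gated and potassium channels (10 of 20).

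**Figure D2:**
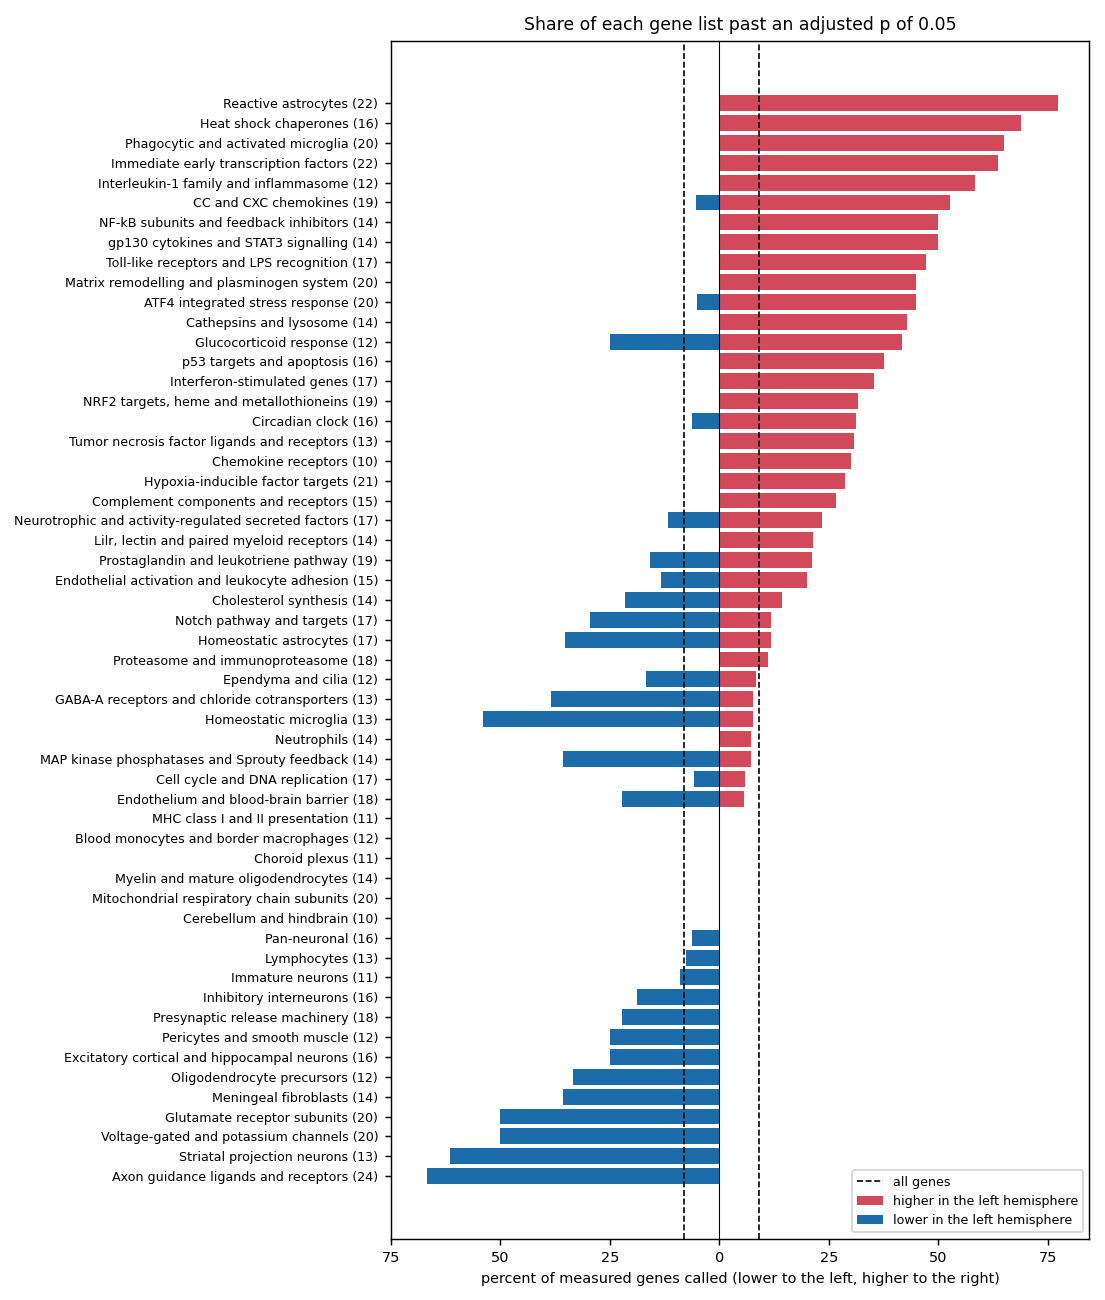
Share of the measured genes of each list (y axis, number measured in brackets; lists with at least 10 measured) that passed an adjusted p of 0.05, in percent, with genes lower on the injured left side drawn to the left and genes higher drawn to the right. Dashed lines mark the shares over all genes, 9.12% higher and 7.96% lower.

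Chemokines, the secreted proteins that draw leukocytes to tissue, had the highest median difference of the gene lists, just ahead of reactive astrocyte genes (0.43). Several other lists held a larger share of increases. Of 19 CC and CXC chemokines measured, 10 rose and 1 (Cxcl14) fell, against 9.12% and 7.96% of all genes, and their median difference was 0.46. Ccl3, a ligand of CCR1, read 12.01, 12.14, 11.94, 12.54 and 11.57 on the left arrays of animals 1 to 5 and 7.75, 7.78, 7.95, 8.14 and 7.80 on the right. The groups were thus about 4 log2 units apart with no overlap, a fold of 17.8 (adjusted p = 5.41e-08). Ccl2, the main monocyte attractant, read 9.52, 9.67, 9.50, 10.15 and 9.10 on the left and 7.28 to 7.44 on the right, a difference of 2.21 ± 0.14 (adjusted p = 5.86e-06). Cxcl10, an interferon-inducible ligand of CXCR3, read 8.79, 9.33, 8.97, 9.55 and 8.84 on the left and 7.32, 7.44, 7.33, 7.39 and 6.96 on the right, a difference of 1.81 ± 0.14 (adjusted p = 1.81e-05). In each of these 3 genes the left array of animal 4 was the highest and the groups did not overlap. Ccl9 rose by 1.59 ± 0.12 and Ccl12, another CCR2 ligand, by 1.04 ± 0.15. Ccl12 differed between animals, with 1.53 and 1.54 in animals 2 and 4 and 0.69 to 0.73 in the other three. The neuronal chemokine Cx3cl1 (-0.10 ± 0.04, adjusted p = 0.13) and the T cell attractant Ccl5 (0.10 ± 0.08, adjusted p = 0.44) were not called. In all fits that left out an animal, 10 of the 11 chemokine calls held; with the replicate block the fall of Cxcl14 was no longer called while the 10 rises were. Without animal 3, 4 or 5 Cxcl14 was not called either (adjusted p 0.1, 0.11 and 0.12).

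Among the receptors of these ligands, 3 of 10 rose, and each did so weakly. Ackr3, a scavenger receptor, rose by 0.28 ± 0.06. Ccr1, the receptor of Ccl3, rose by 0.28 ± 0.05 with levels of 5.98 on the left and 5.71 on the right, below the control median on all 10 arrays. Cx3cr1 was not called (0.06 ± 0.05, adjusted p = 0.56).

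Promoter sequence is shown for 4 of the leading genes, as their 250 bases before the transcription start hold letters of stress and inflammation motifs. Motifs searched on both strands were AP-1 (TGACTCA), the cyclic AMP response element (TGACGTCA), the heat shock element (GAANNTTC), NF-kB (GGGANTTCC), the interferon response motif (GAAANNGAA) and the E-box (CACGTG), where N is any base; matches are in capitals, and no capitals of one motif overlap another. The sequences are from RefSeq on GRCm38.p6, 5′ to 3′ on the strand of the gene: Ccl3 at chr11:83649379-83649628 (minus strand), Cxcl10 at chr5:92348890-92349139 (minus), Hspa1a at chr17:34972157-34972406 (minus) and Emp1 at chr6:135362681-135362930 (plus).
Ccl3: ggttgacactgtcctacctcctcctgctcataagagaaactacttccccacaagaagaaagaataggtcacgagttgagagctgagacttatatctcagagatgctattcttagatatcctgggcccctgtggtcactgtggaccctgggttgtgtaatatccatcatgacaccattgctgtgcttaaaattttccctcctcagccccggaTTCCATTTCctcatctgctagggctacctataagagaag
Cxcl10: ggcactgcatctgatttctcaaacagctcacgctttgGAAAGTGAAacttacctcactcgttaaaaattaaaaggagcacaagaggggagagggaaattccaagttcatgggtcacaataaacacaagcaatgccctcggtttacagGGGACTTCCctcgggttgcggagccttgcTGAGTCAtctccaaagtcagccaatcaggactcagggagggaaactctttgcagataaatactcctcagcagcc
Hspa1a: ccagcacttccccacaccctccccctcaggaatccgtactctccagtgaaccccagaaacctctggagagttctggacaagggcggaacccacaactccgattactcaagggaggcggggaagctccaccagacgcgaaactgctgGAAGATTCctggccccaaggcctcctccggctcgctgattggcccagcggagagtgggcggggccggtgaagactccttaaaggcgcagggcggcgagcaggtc
Emp1: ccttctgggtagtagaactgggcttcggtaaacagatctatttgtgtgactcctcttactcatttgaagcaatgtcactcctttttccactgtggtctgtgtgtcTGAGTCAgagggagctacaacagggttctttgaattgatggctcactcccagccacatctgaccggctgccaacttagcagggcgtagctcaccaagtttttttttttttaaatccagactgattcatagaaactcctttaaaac
Cxcl10 holds an interferon response match that starts 213 bases before the transcription start, an NF-kB match at 103 and an AP-1 match at 74. Ccl3 holds 1 interferon response match at 39, Hspa1a 1 heat shock element at 104 and Emp1 1 AP-1 match at 145. These are matches of letters and not measured binding sites.

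Promoter windows were at hand for 15613 of the 19937 genes, and genes without a window were not searched. Among all 19176 windows, the heat shock element was found in 5.78%, the interferon response motif in 6.79% and AP-1 in 4.03%. NF-kB was found in 1.62%, the cyclic AMP response element in 2.02% and the E-box in 6.99%. Heat shock chaperone genes held the heat shock element in 5 of 19 windows (26.3%), those of Hspa1a, Hspb1, Hspd1, Hspe1 and Dnaja1. Interferon-stimulated genes held the interferon response motif in 6 of 17 windows (35.3%), among them those of Ifit1, Ifit3 and Rsad2. Chemokine genes, 14 of 19 with a window, held the interferon response motif in 4 of 14 windows (28.6%) and the NF-kB motif in 2 of 14 (14.3%). Windows were at hand for 11 of the 15 leading increases. Their 12 windows held AP-1 in 2, the interferon response motif in 2 and the heat shock element, NF-kB and the E-box in 1 each. The 16 windows of the leading decreases, for 11 of the 15 genes, held 1 match in all, an E-box of Nrarp.

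Interleukin-1 genes, the first-line cytokines of brain injury, rose, though Il1b less than Il1a. Of 12 genes of the interleukin-1 family and inflammasome 7 rose and 0 fell, and without animal 1, 2 or 4 the calls numbered 4. Il1a read 7.72, 8.03, 7.82, 7.89 and 6.72 on the left and 6.35, 6.56, 6.56, 6.53 and 6.10 on the right, with animal 5 lowest on both sides and no overlap (1.22 ± 0.21, adjusted p = 0.00232). Il1b read 6.78, 7.04, 6.81, 7.25 and 6.46 on the left and 6.29, 6.38, 6.38, 6.49 and 6.52 on the right. In animal 5 the left value of Il1b was the lower one, the groups overlapped, and 8 of the 10 arrays lay below the control median (0.45 ± 0.12, adjusted p = 0.0229). The call of Il1b was lost when animal 1, 2, 3 or 4 was left out (adjusted p 0.071, 0.11, 0.071 and 0.053). Il1r2, the decoy receptor, rose by 0.32 ± 0.04.

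Tumor necrosis factor genes rose in 4 of 13 cases, with 0 falls. Tnf itself read 7.26, 7.37, 7.49, 7.52 and 7.35 on the left and 7.11, 7.03, 6.78, 6.77 and 6.74 on the right (0.51 ± 0.08, adjusted p = 0.00128). The separation was narrow in animal 1 (0.15) and widest in animal 4 (0.75). Its receptor Tnfrsf1a rose by 0.44 ± 0.06, and Tnfrsf12a, the receptor of the cytokine TWEAK, by 0.63 ± 0.07. The other cytokines of the panel gave low levels. Il6 (4.30 ± 0.23 on the left and 4.01 ± 0.15 on the right, SD, n = 5) and Il10 (5.21 ± 0.15 and 5.21 ± 0.19) lay below the control median on all 10 arrays. Il10 was not called (adjusted p = 0.972), and neither was Il6 (adjusted p = 0.0837), though it was called with the replicate block (adjusted p = 0.039) and without the left array of animal 5 (adjusted p = 0.032).

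Toll-like receptor and LPS recognition genes rose in 8 of 17 cases, and genes of NF-kB subunits and regulators in 7 of 14. Neither list held a fall. Cd14, the LPS co-receptor, read 8.63, 9.11, 9.00, 9.35 and 8.63 on the left and 7.34, 7.24, 7.48, 7.68 and 7.50 on the right, a difference of 1.498 ± 0.13 with no overlap (adjusted p = 4.43e-05). Tlr2, which senses bacterial lipoproteins, rose by 0.59 ± 0.04, Tlr13 by 0.64 ± 0.08 and the adaptor Myd88 by 0.50 ± 0.08. Nfkbiz, an inducible regulator of NF-kB, rose by 0.31 ± 0.04 and Nfkb2 by 0.25 ± 0.05. Nfkbia, the classical inhibitor, was higher in 5 of 5 animals but not called (0.19 ± 0.06, adjusted p = 0.0616). Without animals 1 and 2 the calls of the NF-kB list numbered 3 and 4.

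Genes of gp130 and STAT3 signalling, a pathway known to drive astrocyte reactivity, rose in 7 of 14 cases. These are transcript levels, and the activity of the pathway was not measured. Osmr, the oncostatin M receptor, read 9.76, 9.80, 9.69, 10.00 and 10.03 on the left and 8.83 to 9.10 on the right (0.87 ± 0.07, adjusted p = 2.94e-05). Stat3 rose by 0.42 ± 0.04 and its feedback inhibitor Socs3 by 0.47 ± 0.07. Lifr (-0.03 ± 0.05) and Jak2 (0.14 ± 0.05, adjusted p = 0.0686) were not called.

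Interferon-stimulated genes rose in 6 of 17 cases, and all 17 had a positive difference (median 0.22). Without animal 2 or 4 the calls numbered 3. Ifit3 read 9.05, 10.06, 9.32, 9.53 and 8.99 on the left and 8.14, 8.67, 8.43, 8.55 and 7.72 on the right (1.09 ± 0.21, adjusted p = 0.00525). The animals kept the same order on both sides, animal 2 being highest and animal 5 lowest in each hemisphere. Rsad2 rose by 0.88 ± 0.13 and Ifit1 by 0.79 ± 0.15, both of them antiviral effectors. Of 11 genes of MHC class I and II presentation 0 were called, 1 had an unadjusted p under 0.05, and B2m, the shared light chain of class I, differed by 0.10 ± 0.06 (adjusted p = 0.29). Without animal 5, 1 gene of this list was called.

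Several genes known from resting microglia, the resident macrophages of the brain, were lower, and genes known from activated microglia were higher. Which cells of the bulk tissue carried these changes was not tested. Of 13 homeostatic microglial genes 7 fell and 1 (Tgfbr1) rose, with a median of -0.23; without animal 2 the calls numbered 5. The rise of Tgfbr1 was not called without animal 2 or 4 (adjusted p 0.071 and 0.069). P2ry12, the ADP receptor that guides surveying processes, read 8.30, 8.37, 8.09, 8.40 and 8.33 on the left and 8.51, 8.73, 8.76, 8.80 and 8.66 on the right (-0.39 ± 0.07, adjusted p = 0.00241). P2ry13, a related ADP receptor, fell by 0.56 on the log2 scale (standard error 0.07), Selplg fell by 0.42 (0.08) and Tmem119 fell by 0.36 (0.07). None of the 4 overlapped between hemispheres. Csf1r, the survival receptor, was lower in 5 of 5 animals but not called (-0.14 ± 0.05, adjusted p = 0.0912).

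Activation genes rose in 13 of 20 cases with 0 falls and a median of 0.37. Gpr84, a fatty acid receptor of activated myeloid cells, read 9.29, 9.51, 9.39, 9.62 and 9.20 on the left and 7.72, 7.94, 7.69, 7.92 and 7.68 on the right (1.61 ± 0.08, adjusted p = 1.1e-06). Its difference was nearly the same in every animal, 1.52 to 1.70. Msr1, a scavenger receptor, rose by 1.09 ± 0.09, Lgals3, galectin-3, by 0.83 ± 0.08, and the lysosomal protein Cd68 by 0.46 ± 0.06. Apoe was not called (-0.08 ± 0.03, adjusted p = 0.12). The complement receptors C3ar1 (1.17 ± 0.09) and C5ar1 (1.00 ± 0.08) rose, while 4 of 15 complement genes rose in all and C1qa (0.09 ± 0.05) and C1qc (0.05 ± 0.06) were not called. Without animal 2, 3, 4 or 5 the complement calls numbered 2. Lysosomal cathepsin genes rose in 6 of 14 cases, led by Ctsz (0.34 ± 0.05).

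The paired receptors Lilr4b (1.91 ± 0.10) and Lilrb4a (1.72 ± 0.13) of myeloid cells were among the leading increases. On the right arrays Lilr4b read 5.75 to 6.10, below the control median on all 5, and on the left 7.61 to 8.22, above it. The 2 genes are near-identical copies, and probes may not tell them apart. Of the 14 genes of their list 3 rose, the third being Clec5a (0.46 ± 0.08).

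Most markers of blood leukocytes were low on both sides. Above the control median on all 10 arrays were 1 of 5 neutrophil, 0 of 3 blood monocyte and 1 of 3 lymphocyte markers measured. Of 5 neutrophil markers, S100a8, Ly6g and Ngp lay below the control median on all 10 arrays, and their summed level was 8.86 to 8.922 on the left and 8.755 to 8.908 on the right in log2 units. Of 3 blood monocyte markers Ccr2 and Chil3 were below it on all 10, with sums of 7.065 to 7.522 on the left and 6.955 to 7.378 on the right. Cd3d and Cd79a of 3 lymphocyte markers were below it too, with sums of 8.41 to 8.45 and 8.40 to 8.70. In the longer lists, 0 of 12 monocyte and border macrophage genes were called (2 at an unadjusted p under 0.05), 1 of 13 lymphocyte genes, Cd4, fell, and 1 of 14 neutrophil genes, Cxcr2, rose at a level below the control median on all 10 arrays. The call of Cd4 was lost without animal 1 (adjusted p = 0.063), and that of Cxcr2 without animal 1, 2, 4 or 5 (adjusted p 0.079, 0.074, 0.12 and 0.12) and with the replicate block (adjusted p = 0.1). The part of blood leukocytes in the chemokine and myeloid results was not tested beyond these values.

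Most reactive astrocyte genes rose, and some homeostatic ones fell. Of 22 reactive astrocyte genes 17 rose and 0 fell (median 0.43), and 16 of the 17 calls held whichever animal was left out. Emp1, a membrane protein of reactive astrocytes, read 10.70, 10.67, 10.60, 10.98 and 10.73 on the left and 8.88, 8.79, 8.62, 8.95 and 8.70 on the right (1.95 ± 0.08, adjusted p = 1.43e-07). Its difference ran only from 1.82 to 2.03 between animals. Timp1, an inhibitor of matrix proteases, read 8.69, 9.19, 8.82, 8.96 and 9.24 on the left and 7.49 to 8.12 on the right (1.15 ± 0.13, adjusted p = 0.000173). Gfap, the intermediate filament that defines astrogliosis, rose by only 0.24 ± 0.05, in every animal by 0.21 to 0.30. The classical reactive marker Lcn2 read 10.43, 10.82, 10.93, 10.32 and 11.07 on the left and 10.68, 10.13, 10.89, 10.06 and 10.39 on the right. It was thus high in both hemispheres with overlap, lower on the left in animal 1, and not called (0.28 ± 0.18, adjusted p = 0.331).

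Of 17 homeostatic astrocyte genes 6 fell and 2 rose, and without animals 2, 3 and 5 the calls numbered 4, 5 and 5. Fgfr3, a growth factor receptor of astrocytes, read 10.60, 10.49, 10.53, 10.35 and 10.55 on the left and 11.11, 11.08, 11.11, 11.19 and 11.13 on the right (-0.62 ± 0.05, adjusted p = 1.55e-05). The groups were separated in every animal, with differences of -0.50 to -0.85. The D-serine and glycine transporter Slc7a10 fell by 0.54 (0.05) and the gap junction gene Gjb6 fell by 0.49 (0.08). The glutamate transporter Slc1a2 (-0.07 ± 0.05, adjusted p = 0.38) and Aldoc (-0.08 ± 0.04, adjusted p = 0.14) were not called.

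**Figure D3:**
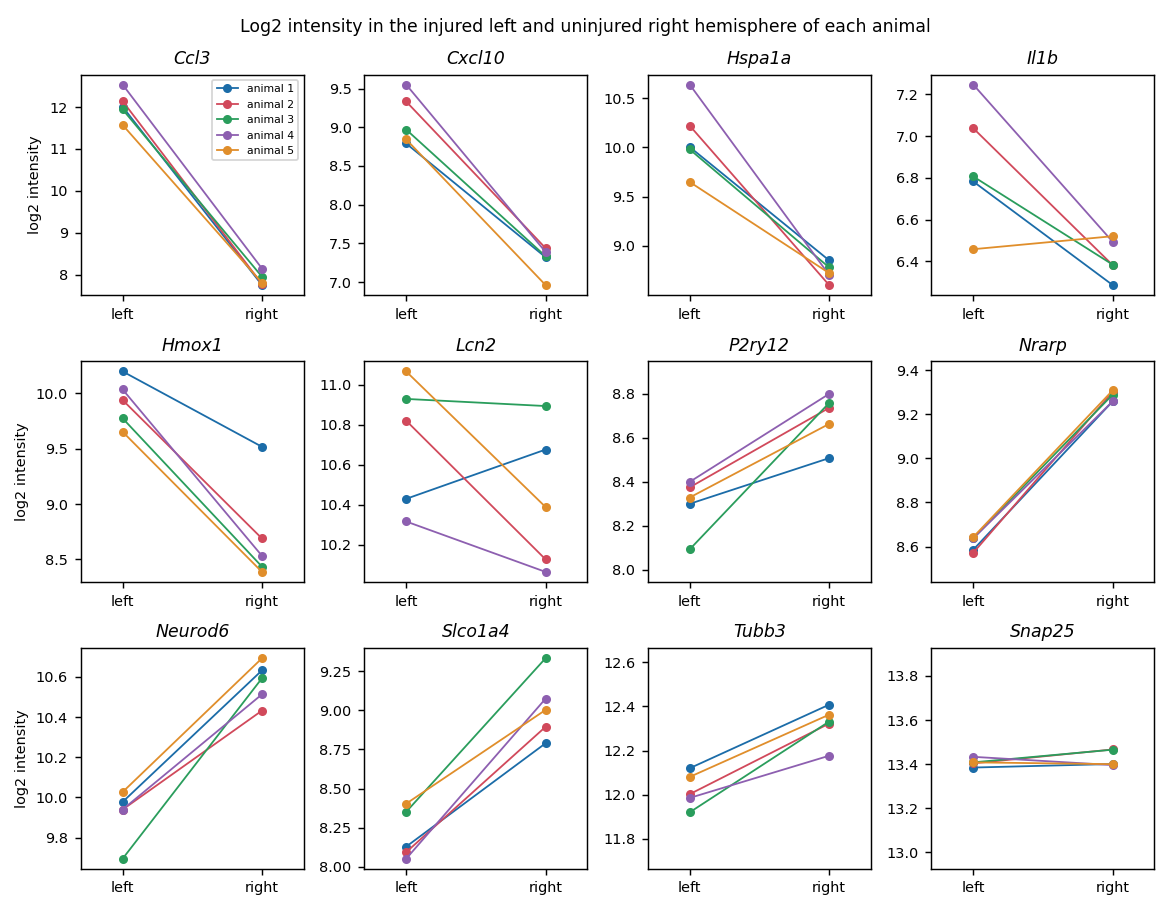
Log2 intensity (y axis) of 12 genes in the injured left and uninjured right hemisphere (x axis), with a line for each of the 5 animals; panels differ in scale. Ccl3 is at 11.57 to 12.54 on the left and 7.75 to 8.14 on the right, Il1b crosses in animal 5, Lcn2 is spread in both hemispheres, and Snap25 lies at 13.38 to 13.47 throughout.

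Genes of the stress responses rose in large numbers. Of 16 heat shock chaperones 11 rose and all 16 had a positive difference (median 0.33). Hspa1a, the inducible HSP70, read 10.00, 10.22, 9.98, 10.64 and 9.65 on the left and 8.85, 8.60, 8.78, 8.71 and 8.73 on the right (1.36 ± 0.14, adjusted p = 0.000106). The left values were spread over about 1 log2 unit while the right values were close together. A near-identical copy of Hspa1a exists, so its probes may read both. The small chaperone Hspb1 rose by 1.17 ± 0.11, the co-chaperone Bag3 by 0.60 ± 0.06 and Hsph1 by 0.55 ± 0.07. The constitutive Hspa8 differed by 0.06 ± 0.03 and was not called (adjusted p = 0.23).

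Of 20 genes of the ATF4 integrated stress response 9 rose and 1 (Vldlr) fell; the fall was not called with the replicate block or without animal 1, 2, 3 or 5 (adjusted p 0.068, 0.11, 0.14 and 0.13). Atf3, a stress-induced transcription factor, read 9.90, 10.13, 9.94, 10.51 and 9.63 on the left and 7.79 to 7.92 on the right (2.18 ± 0.12, adjusted p = 1.87e-06). Ppp1r15a, which lifts translational arrest, rose by 0.70 ± 0.05 and Atf4 by 0.52 ± 0.05. The amino acid genes Asns (0.07 ± 0.03) and Slc7a5 (0.11 ± 0.04) were not called. Of 16 p53 target and apoptosis genes 6 rose, led by the pro-apoptotic Bcl2l11 (0.59 ± 0.07) and by Phlda3 (0.49 ± 0.04). Gadd45b, a stress gene of the growth arrest family, rose by 1.56 ± 0.10.

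Immediate early genes, which neurons and glia switch on within minutes of stimulation, rose in 14 of 22 cases. Fos read 9.34, 9.71, 9.79, 9.24 and 8.74 on the left and 7.99, 7.89, 7.82, 7.95 and 7.68 on the right (1.496 ± 0.16, adjusted p = 0.000149). Fosb rose by 1.13 ± 0.15 and Fosl1 by 0.61 ± 0.06. In both Fos and Fosb the left value was highest in animal 3 and lowest in animal 5, and the median of the whole list was 0.42 in animal 3 and 0.09 in animal 5. Klf6 (0.09 ± 0.04) and Nr4a2 (0.03 ± 0.05) were not called. Of 14 MAP kinase phosphatase and Sprouty family genes, feedback inhibitors of the same cascade, 5 fell and 1 rose; Dusp6, the ERK phosphatase, fell by 0.37 (0.05), Spred2 fell by 0.32 (0.04), and Dusp14 rose by 0.66 ± 0.06.

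Genes of oxygen and redox stress rose in smaller numbers. Of 19 NRF2 and heme genes 6 rose, among them Hmox1, heme oxygenase-1, which read 10.20, 9.94, 9.78, 10.04 and 9.65 on the left and 9.52, 8.69, 8.43, 8.53 and 8.39 on the right (1.21 ± 0.19, adjusted p = 0.00146). Animal 1 had the highest Hmox1 in both hemispheres and the smallest difference, 0.68 against 1.25 to 1.505. The metallothioneins Mt1 and Mt2 rose by 0.38 ± 0.04 and 0.31 ± 0.04. Of 21 hypoxia-inducible factor targets 6 rose and with the replicate block 4 did; Pfkfb3, a glycolytic regulator, rose by 0.39 ± 0.04 and the vasodilator peptide Adm by 0.42 ± 0.08. The glycolytic enzymes Ldha (-0.01 ± 0.04) and Hk1 (0.03 ± 0.05) were not called. Hif3a, a family member of the hypoxia-inducible factors, fell by 0.57 (0.09).

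Prostaglandin genes were mixed, with 4 of 19 higher and 3 lower, against 9.12% and 7.96% of all genes. Without animals 1, 2, 3 and 5 the calls numbered 4, 3, 3 and 4. Ptges, the terminal prostaglandin E synthase, rose by 0.37 ± 0.05 and the receptor Ptger4 by 0.36 ± 0.05. Ptgs2, cyclooxygenase-2, rose by 0.31 ± 0.09 (adjusted p = 0.034), with 0.55 and 0.53 in animals 2 and 4 and 0.09 in animal 5. Its groups overlapped, and its call was lost without animal 1, 2, 3 or 4 (adjusted p 0.064, 0.14, 0.077 and 0.13). Of 20 matrix and plasminogen genes 9 rose and 0 fell, with Plau, urokinase, at 0.89 ± 0.12, the hyaluronan receptor Cd44 at 0.86 ± 0.06 and Thbs1 at 0.58 ± 0.05.

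Of 18 endothelial and blood-brain barrier genes 4 fell, all of them transporters, and 1 (Pecam1) rose, while 13 were not called. Slco1a4, an organic anion transporter of the blood-brain barrier, read 8.13, 8.09, 8.35, 8.05 and 8.40 on the left and 8.79, 8.89, 9.33, 9.07 and 9.00 on the right (-0.81 ± 0.10, adjusted p = 0.000311). Every left array lay below every right array. The thyroid hormone transporter Slco1c1 fell by 0.25 (0.06), a call lost without animal 3 or 4 (adjusted p 0.076 and 0.073), and the efflux pump Abcb1a and the lipid transporter Mfsd2a fell by 0.30 each (standard errors 0.05 and 0.05). The rise of Pecam1 was not called with the replicate block or without animal 2, 3, 4 or 5 (adjusted p 0.093, 0.054, 0.12 and 0.12), and without animal 3 or 4 the calls of the list numbered 3. Of 15 genes of endothelial activation and leukocyte adhesion 3 rose, 2 fell and 10 were not called, with a median of -0.04. The adhesion molecules Icam1 (0.59 ± 0.07) and Sele (0.38 ± 0.07) and the vessel-destabilising ligand Angpt2 (0.55 ± 0.07) rose. Selplg, a selectin ligand given above with the microglial genes, and the adhesion molecule Vcam1 fell, the latter by 0.19 (0.05). The call of Vcam1 was lost without animal 1, 4 or 5 (adjusted p 0.062, 0.069 and 0.055).

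Slc6a13, Slc22a8 and Slc22a6, transporters known from the meninges, fell. Slc6a13, the transporter GAT2, which carries GABA and taurine, read 9.26, 9.34, 9.36, 8.80 and 9.66 on the left and 10.04, 9.80, 9.79, 9.94 and 9.83 on the right (-0.59 ± 0.12, adjusted p = 0.0072). Slc22a8, the organic anion transporter OAT3, fell by 0.56 (0.06) and Slc22a6, OAT1, fell by 0.55 (0.07). Of 14 meningeal fibroblast genes 5 fell and with the replicate block 2 did. Without animals 1, 2 and 4 the calls numbered 2, 2 and 3. The median of this list was -0.37 and -0.50 in animals 1 and 4 and 0.01, -0.02 and 0.04 in animals 2, 3 and 5, and Dcn, a collagen-binding protein that is no transporter, differed by -1.03 in animal 4 and by 0.06 to 0.17 in animals 2, 3 and 5. Their part in the falls of Slc6a13, Slc22a8 and Slc22a6 was not tested. Of 11 choroid plexus genes 0 were called, 3 had an unadjusted p under 0.05, and Ttr differed by 0.03 ± 0.07.

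Most striatal projection neuron genes fell, while most genes of the pan-neuronal, cortical and interneuron lists were not called. Of 16 pan-neuronal genes only Tubb3, neuronal tubulin, was called, and it read 12.12, 12.00, 11.92, 11.99 and 12.08 on the left and 12.41, 12.32, 12.33, 12.18 and 12.36 on the right (-0.30 ± 0.05, adjusted p = 0.0025). Snap25, a fusion protein of all synapses, read 13.38, 13.40, 13.41, 13.43 and 13.41 on the left and 13.40, 13.47, 13.47, 13.40 and 13.40 on the right and was not called (-0.02 ± 0.03, adjusted p = 0.759). Neither was Syt1, a calcium sensor of vesicle release (-0.07 ± 0.03, adjusted p = 0.125). All 13 striatal projection neuron genes were lower on average, 8 of them called, with the dopamine receptor Drd2 at -0.34 ± 0.06, the orphan receptor Gpr6 at -0.31 ± 0.06, the transcription factor Bcl11b at -0.30 ± 0.04 and Ppp1r1b, DARPP-32, at -0.28 ± 0.05. All 8 calls held whichever animal was left out. Among 16 genes of excitatory cortical and hippocampal neurons 4 fell, led by Neurod6, a transcription factor of these cells, which read 9.98, 9.94, 9.70, 9.94 and 10.03 on the left and 10.63, 10.43, 10.59, 10.51 and 10.69 on the right (-0.66 ± 0.07, adjusted p = 9.75e-05). The vesicular glutamate transporter Slc17a7 was not called (-0.09 ± 0.06, adjusted p = 0.4). Without animal 2, 3 or 5 the calls of this list numbered 2. Of 16 interneuron genes 3 fell, and 1 did so with the replicate block, and without animals 2, 3, 4 and 5 the calls numbered 1, 0, 0 and 1; Sst was not called (-0.02 ± 0.04).

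Many receptor and channel genes of neurons fell by small amounts. All 20 glutamate receptor subunits had a negative difference (median -0.18) and 10 fell. Grin3a, an NMDA receptor subunit, read 11.07, 10.95, 10.92, 10.77 and 11.03 on the left and 11.23 to 11.30 on the right (-0.31 ± 0.05, adjusted p = 0.00206), and the metabotropic receptor Grm8 fell by 0.28 (0.04). The AMPA receptor subunit Gria2 was not called (-0.06 ± 0.04, adjusted p = 0.28). Without animal 2 or 3 the calls numbered 5. Of 20 voltage-gated and potassium channel genes 10 fell and 0 rose, with Kcna4 at -0.39 ± 0.04 and Kcnd2 at -0.29 ± 0.04, both of them A-type potassium channels; without animals 2, 3 and 4 the calls numbered 5, 6 and 6. Of 13 GABA-A receptor and chloride cotransporter genes 5 fell and 1 rose, with Gabrb2 at -0.22 ± 0.03 and the cotransporter Slc12a5 not called (-0.10 ± 0.04, adjusted p = 0.12). Without animal 2 or 4 the calls of the GABA-A list numbered 3. Of 18 presynaptic genes 4 fell, with Vamp1 at -0.27 ± 0.04, and without animals 2, 3, 4 and 5 the calls numbered 1, 1, 2 and 2. Npy2r, a presynaptic neuropeptide Y receptor, fell by 0.56 (0.06).

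Axon guidance genes, which also shape adult synapses and vessels, showed the largest share of decreases of the lists, 16 of 24 with 0 increases and a median of -0.20. Nrp1, a semaphorin and VEGF co-receptor, read 10.02, 9.91, 9.92, 9.68 and 9.95 on the left and 10.23 to 10.31 on the right (-0.37 ± 0.06, adjusted p = 0.0011). The ephrin receptor Epha7 fell by 0.36 (0.05) and the netrin receptor Dcc fell by 0.36 (0.06). Efnb2 (-0.03 ± 0.04) was not called. Of the 16 falls 14 were called with the replicate block and 8 in every fit that left out an animal; without animal 2 the calls numbered 10.

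Notch signalling, which keeps astrocytes and progenitors in their state, had genes that changed both ways. Of 17 genes 5 fell, 2 rose and 10 were not called, against 7.96% of all genes lower and 9.12% higher. The median of the list was -0.05, and 8 of the 17 had a positive difference. The genes named here are among the falls. Nrarp, a feedback inhibitor of Notch, read 8.59, 8.57, 8.64, 8.64 and 8.64 on the left and 9.26, 9.30, 9.29, 9.26 and 9.31 on the right. This was the tightest of the leading decreases, with a difference of -0.62 to -0.73 in the 5 animals (-0.67 ± 0.03, adjusted p = 7.53e-07). The target Hes5 fell by 0.46 (0.05), the glycosyltransferase Lfng fell by 0.42 (0.06) and Notch1 itself fell by 0.37 (0.05). All 7 calls of the list were made with the replicate block too.

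In the oligodendrocyte lineage, 4 of 12 precursor genes fell and 0 of 14 myelin genes were called. The median of the precursor list was -0.05, with a positive difference in 5 of its 12 genes. Pdgfra, the growth factor receptor of precursors, read 10.83, 10.76, 10.66, 10.60 and 10.85 on the left and 11.08 to 11.13 on the right (-0.36 ± 0.05, adjusted p = 0.000567). Cspg4 (NG2), shared by precursors and pericytes, fell by 0.32 (0.06). Without animal 2 the precursor calls numbered 2. Of the myelin genes 2 had an unadjusted p under 0.05 in limma, and Mbp differed by 0.04 ± 0.08 (adjusted p = 0.782). Mitochondrial respiratory chain genes gave 0 calls of 20, with 0 at an unadjusted p under 0.05 and a median of 0.01.

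MicroRNA genes fell more often than they rose. Of 297 measured, 31 fell and 4 rose, against 7.96% and 9.12% of all genes, and 160 lay below the control median on all 10 arrays. The imprinted region between Dlk1 and Dio3, a large microRNA cluster of neurons, held 40 of them, of which 13 fell and 0 rose (median -0.27), while elsewhere 18 of 257 fell and 4 rose (median -0.05). Counted over all 257, the falls elsewhere were thus no more frequent than among all genes. However, 155 of these 257 lay below the control median on all 10 arrays, against 5 of 40 in the cluster. Such low genes made up 4 of the 18 falls elsewhere and 2 of the 13 in the cluster. The 2 shares of falls therefore compare genes of unlike level, and whether the excess lay in the cluster alone was not tested. In the cluster the median difference was -0.24, -0.64, -0.40 and -0.16 in animals 1 to 4 and 0.05 in animal 5. A probe set reads the gene and not either arm of the hairpin, and the values do not give mature microRNA levels.

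The mature sequences are shown for the microRNA genes that led the decreases and increases, from RefSeq on GRCm38.p6, with the seed (bases 2 to 8) in capitals. Mir379 and Mir411, neighbours in the cluster, share the seed of their 3p arms. The genes Mir19a and Mir19b-1, which rose, share a seed as well.
miR-421-5p: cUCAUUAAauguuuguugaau
miR-379-5p: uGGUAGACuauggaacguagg
miR-379-3p: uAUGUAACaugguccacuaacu
miR-411-3p: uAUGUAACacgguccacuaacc
miR-380-3p: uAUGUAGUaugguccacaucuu
miR-128-3p: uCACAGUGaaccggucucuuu
miR-9-5p: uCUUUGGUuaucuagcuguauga
miR-341-5p: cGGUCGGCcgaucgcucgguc
miR-19a-3p: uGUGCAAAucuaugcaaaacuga
miR-19b-3p: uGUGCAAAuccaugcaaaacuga

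Mir421 read 5.90, 5.12, 6.04, 5.98 and 6.17 on the left and 6.48, 6.75, 6.88, 6.69 and 6.93 on the right (-0.90 ± 0.17, adjusted p = 0.004). The left array of animal 2 was the lowest, and 9 of the 10 arrays lay below the control median. Mir128-1 and Mir9-1, brain-enriched microRNA genes, read above it on all 10 arrays and fell by 0.57 (0.09) and by 0.54 (0.09). Mir379 differed by -1.503 in animal 2 and by -0.28 to -0.61 in the others (-0.66 ± 0.19, adjusted p = 0.0345), at levels below the control median on all 10 arrays. The call of Mir379 was lost without animal 1, 2, 3 or 4 (adjusted p 0.052, 0.09, 0.088 and 0.077). Mir380 fell by 0.54 (0.12) and Mir341 fell by 0.54 (0.12), the latter not called without animal 4 (adjusted p = 0.061). Mir411 differed by -0.51 ± 0.16 (adjusted p = 0.0497), and this call was lost without any 1 of the 5 animals and with the replicate block (adjusted p = 0.0715). Among the increases, Mir19a rose by 0.49 ± 0.11 and Mir19b-1 by 0.31 ± 0.08, both at levels below the control median on all 10 arrays. The call of Mir19b-1 was lost without animal 1, 4 or 5 (adjusted p 0.097, 0.11 and 0.11). Mir367, also below it on all 10, rose by 0.16 ± 0.04. Its call was lost without animal 1, 2, 3 or 4 (adjusted p 0.078, 0.052, 0.094 and 0.057).

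**Figure D4:**
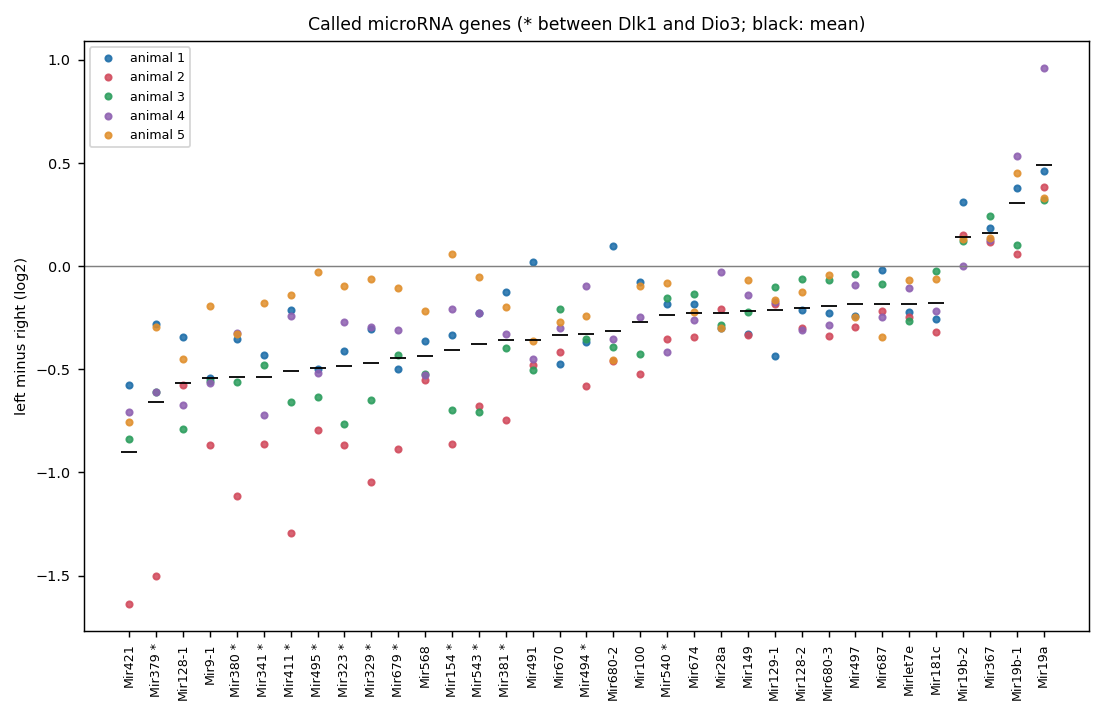
Log2 difference between injured left and uninjured right hemisphere (y axis) for the 35 called microRNA genes (x axis), with coloured dots for the 5 animals and a black tick for the mean. Asterisks mark genes between Dlk1 and Dio3; in 11 of these 13 animal 2 is lowest, and in 9 of 13 animal 5 is nearest to 0.

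The changes were shared by the animals to different degrees. When genes were called in 4 animals and looked up in the animal left out, 95.8% to 97.9% of the genes higher in the 4 were also higher in the fifth, where 43.3% to 49.5% of all genes had that sign. Of the genes lower in the 4, 89.1% to 95.2% were lower in the fifth, against 50.5% to 56.7% of all genes. For genes past 1.5-fold in the other 4 animals the median increase in the animal left out was 0.70 in animal 1, 0.92 in animal 2, 0.79 in animal 3, 0.955 in animal 4 and 0.69 in animal 5. Chemokine genes had their highest list medians in animals 4 and 2 (0.61 and 0.58), reactive astrocyte genes in animals 3 and 5 (0.56 and 0.56), and striatal genes their lowest in animal 3 (-0.34).

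**Figure D5:**
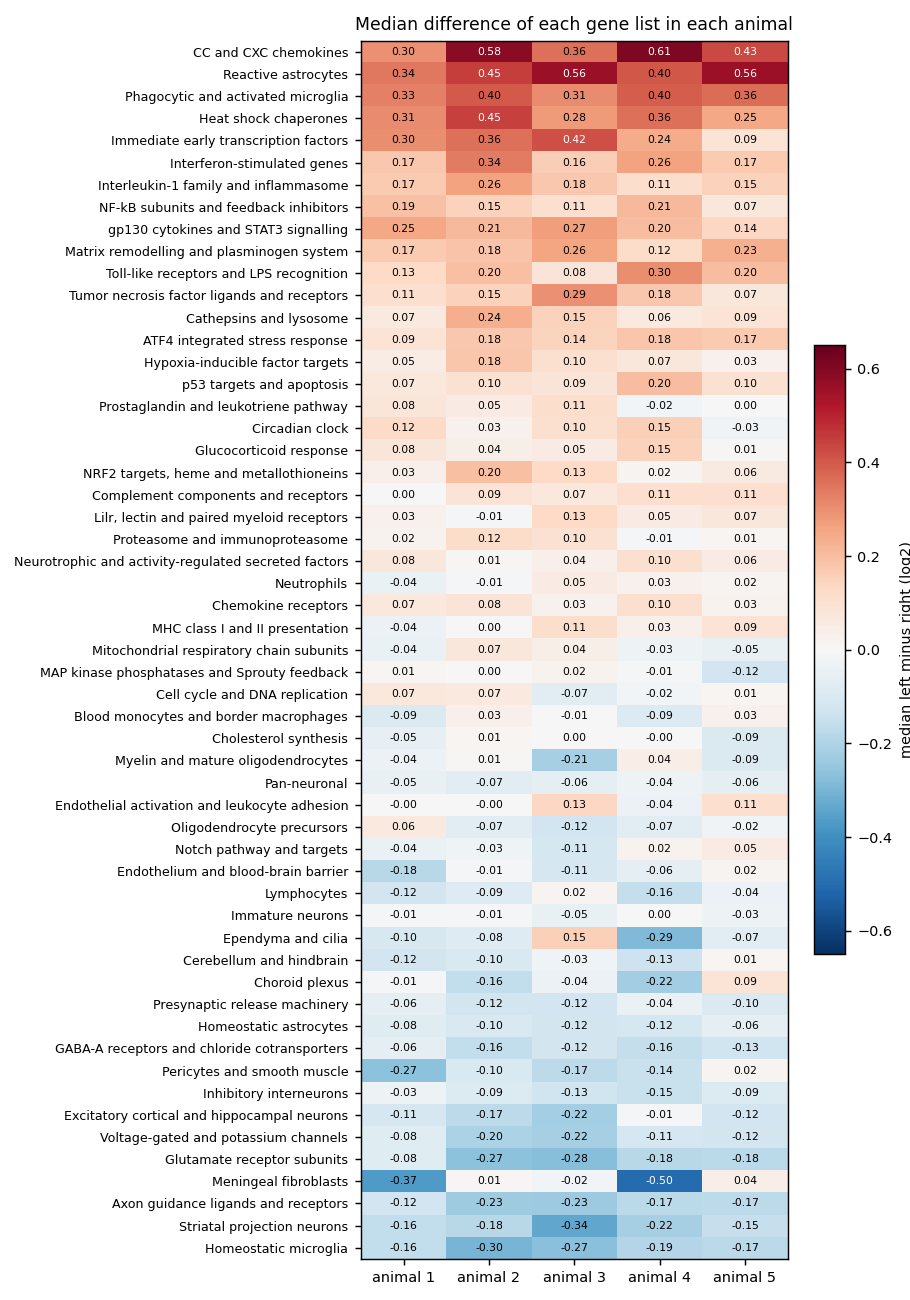
Median log2 difference between injured left and uninjured right hemisphere for each gene list with at least 10 measured genes (y axis) in each of the 5 animals (x axis); the number in each cell is the median, red above 0 and blue below. Chemokine, reactive astrocyte and heat shock lists are above 0 in all 5 animals, and the meningeal list is far below 0 in animals 1 and 4 only.

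Whether the hemispheric difference was itself altered by the peptide was asked by setting it against the same difference in the 5 animals without peptide. In limma 0 of 28192 probe sets passed an adjusted p of 0.05 for this difference of differences. An unadjusted p under 0.05 was seen for 781 (2.77%), fewer than that threshold gives by chance alone. In data simulated with independent genes, this fit found 35% of changes of 1.2-fold and 89% of those of 1.5-fold. Small effects of the peptide could thus be missed, and the unadjusted values below are description only. Ccl3 differed by 4.16 with the peptide and 4.09 without, Emp1 by 1.95 and 2.07, and Nrarp by -0.67 and -0.55. Il1b differed by 0.45 with the peptide and by 1.15 without (unadjusted p = 0.00647), and Hspa1a by 1.36 and 1.94 (unadjusted p = 0.0237). Among the decreases, Slco1a4 differed by -0.81 with and by -0.53 without (unadjusted p = 0.0388), and Neurod6 by -0.66 and -0.38 (unadjusted p = 0.0378). Il1b, Hspa1a, Slco1a4 and Neurod6 each have an unadjusted p under 0.05 and do not stand for the named genes as a set. All adjusted values were 1. Among the 5 genes with the smallest unadjusted p in each direction, Mir221, Gm6020, Tmprss11b, Bcl2a1c, Them5, Gm16294 and Vmn2r77 lay below the control median on all 10 arrays, and Ccnq, Krt14 and Hhip above it. Of these, Bcl2a1c and Krt14 rose and Gm16294 and Vmn2r77 fell with the peptide. The call of Krt14 was lost without animal 3, 4 or 5 (adjusted p 0.051, 0.058 and 0.069), that of Gm16294 without animal 2 (adjusted p = 0.072), and that of Vmn2r77 without animal 1, 2, 3 or 5 (adjusted p 0.064, 0.058, 0.13 and 0.13) and with the replicate block. Bcl2a1c differed by 0.61 with the peptide and 1.08 without (unadjusted p = 0.000228).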

How the data were processed

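Total RNA of both hemispheres of 10 mice was hybridised to 20 arrays, and the 10 arrays of peptide-treated animals were compared. The authors deposited log2 intensities for 34760 probe sets, made with RMA in affy 1.38.1 per the submitters' processing notes; the build of the array annotation is not given in the sources used here. RMA equalises the distribution of the arrays, so a shift shared by all genes cannot be seen. After 6568 control probe sets were left out, 28192 were tested, of which 21640 have 1 gene symbol in the platform annotation, 1321 several and 5231 are not listed there; for each gene the probe set of highest mean level across 20 arrays was kept, giving 19937 genes. Of these probe sets 21553 matched the RefSeq gene table by Entrez number.

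Left and right were compared with limma 3.58.1 (lmFit and eBayes) in R 4.3.3 without a block, with p-values adjusted after Benjamini and Hochberg across the 28192 probe sets (threshold 0.05), and the hemispheric difference was compared with that of the 5 animals without peptide by an interaction contrast over all 20 arrays. "Called" means past this threshold. The labels give both hemispheres of an animal the same specimen number, which pairs them; deviations of the paired arrays from their group means correlated at 0.04 to 0.24 over the 5 animals. Named genes were the 15 largest increases and decreases with 1 sign in 5 animals, up to 4 called and 2 not called members of each list, a panel of 14 genes, the 5 smallest interaction p-values in each direction, the leading microRNA genes and the 5 most variable differences; a lone call of a list, list members with a motif and markers were named after their values were seen. The members and the 56 lists were chosen with earlier results of these data known. The fits were tested on simulated data. Alternatives were the replicate block, all groups in the fit, filters on low values, control probe sets and genes, array scaling, variance model, array weights, an exact permutation test and leaving out arrays or animals. Sequences are from RefSeq tables on GRCm38.p6.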

Additional observations from a re-analysis of the deposited data

Results flagged for a closer look

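For 21 of 382 groups of 5 arrays tested (191 named genes in each hemisphere with the peptide), 1 array lay far from the other 4 by Dixon's test, which chance does in about 1 in 20 groups. The far array was that of animal 5 in 6 cases, of animals 1, 2 and 4 in 4 each and of animal 3 in 3. All values are log2 intensities, each given against the range of the other 4 animals.

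On the left the far array was the lowest of its group for 9 genes. Mir421 in animal 2 was at 5.12 against 5.90 to 6.17. Il1a in animal 5 was at 6.72 against 7.72 to 8.03. Socs3 in animal 5 was at 8.64 against 8.90 to 8.99. B2m in animal 1 was at 12.25 against 12.43 to 12.50. Klf6 in animal 4 was at 10.65 against 10.79 to 10.84. Mt1 in animal 1 was at 12.28 against 12.42 to 12.46. Neurod6 in animal 3 was at 9.70 against 9.94 to 10.03. Npy2r in animal 4 was at 7.54 against 7.78 to 7.85. Mir380 in animal 2 was at 6.61 against 7.09 to 7.26.

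On the left the far array was the highest of its group for 3 genes. Hspb1 in animal 4 was at 11.26 against 10.73 to 10.85. Cspg4 in animal 5 was at 9.40 against 9.17 to 9.23. Tgfb1 in animal 4 was at 8.71 against 8.61 to 8.63.

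On the right the far array was the lowest of its group for 4 genes. Cxcl10 in animal 5 was at 6.96 against 7.32 to 7.44. Cx3cr1 in animal 1 was at 9.55 against 9.73 to 9.80. Dusp14 in animal 5 was at 10.35 against 10.55 to 10.58. Bdnf in animal 3 was at 7.69 against 7.83 to 7.88.

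On the right the far array was the highest of its group for 5 genes. Nfkbiz in animal 2 was at 7.80 against 7.74 to 7.76. Dusp6 in animal 3 was at 10.65 against 10.42 to 10.47. Hmox1 in animal 1 was at 9.52 against 8.39 to 8.69. Mir19a in animal 5 was at 4.27 against 3.93 to 3.99. Mir19b-1 in animal 2 was at 5.14 against 4.82 to 4.89.

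The groups of Cxcl10, Il1a, Hspb1, Hmox1 and Neurod6 did not overlap between hemispheres with these arrays included.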

How the results depend on the processing

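The count of 4184 probe sets that differed between hemispheres ranged from 2921 to 4892 over 11 other settings, and from 2323 to 3729 when an array or an animal was left out. Higher probe sets numbered 1365 to 1969 and lower ones 958 to 1790 in those leave-outs. With each array's control median as a covariate, lower probe sets numbered 1232 against 1993, and the cause was not tested. With the replicate block (animal as a fixed term) 3383 probe sets were called, 1868 higher and 1515 lower, and 2524 of the 3405 changed genes kept their call; with animal as a random effect 4489 were called. Centring each array on its median moved the higher share from 52.4% to 46.4%. The difference of differences with and without peptide gave 0 calls in limma under every alternative run. Of 140 named genes called, 19 lost their call when some array or animal was left out, 6 with the fixed replicate block, 0 with the random one and 10 with the control covariate. The exact permutation test over 252 arrangements ignored the pairing by animal and gave an unadjusted p, at smallest 0.00794. At an unadjusted p under 0.05 it passed all 140 and also 15 of the 51 not called. Being the looser threshold, it cannot tell whether the adjusted calls hold. Of 51 not called, 1 (Il6) was called with the fixed replicate block, and beside this gain and the 6 losses the block changed no call of a named gene. No named gene that was called changed sign. The number of animals limits the precision, and 113 of the 3405 changed genes had both means below the control median.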

Other observations

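Secreted factor, clock and glucocorticoid response genes changed in both directions, while 9.12% of all genes rose and 7.96% fell. Each of these lists held a larger share of rises than all genes did. Of 17 neurotrophic and activity-regulated secreted factors 4 rose and 2 fell. Fgf2, a growth factor of astrocytes and vessels, read 8.76, 8.89, 8.77, 8.92 and 8.86 on the left arrays of animals 1 to 5 and 8.16 to 8.36 on the right, with no overlap (0.60 ± 0.05, limma adjusted p = 2.42e-05). Tgfb1, an immunoregulatory cytokine, rose by 0.31 ± 0.04, and the synaptic pentraxin Nptx2 rose by 0.29 ± 0.04. Bdnf, a neurotrophin that activity induces, was not called (-0.07 ± 0.06, adjusted p = 0.454). Of 16 circadian clock genes 5 rose and 1 fell, and without animals 1 and 4 the calls numbered 2 and 3. The repressor Cry1 read 9.62, 9.50, 9.32, 9.46 and 9.18 on the left and 8.79 to 8.93 on the right (0.54 ± 0.07, adjusted p = 0.000465). Clock itself was not called (0.01 ± 0.04). Of 12 glucocorticoid response genes 5 rose and 3 fell, and without animal 2 or 4 the calls numbered 5. Pdk4, which shifts fuel use from glucose, rose by 0.47 ± 0.05 and Errfi1 by 0.32 ± 0.05, while the receptor Nr3c1 was not called (-0.04 ± 0.03).

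Other groups held fewer calls, several of them at about the shares of all genes (9.12% higher and 7.96% lower). Of 14 cholesterol synthesis genes 2 rose and 3 fell, and without animals 1, 2, 3 and 4 the calls numbered 3, 1, 1 and 3. Mvd of this pathway fell by 0.28 (0.06), and Hmgcs1 was not called (0.00 ± 0.05). Of 12 ependymal genes 1 rose and 2 fell; Tppp3, a tubulin-binding protein, rose by 0.46 ± 0.04 with no overlap. Without animals 1, 2, 3 and 4 the ependymal calls numbered 1, 1, 5 and 1. Of 17 cell cycle genes 1 rose (Ccnd1, 0.24 ± 0.04) and 1 fell, and without animal 1, 2, 3 or 4 the calls numbered 1. Of 18 proteasome genes 2 rose, and without animals 1 to 5 the calls numbered 0, 1, 1, 0 and 1. Of 10 cerebellar genes 0 were called in limma, 3 had an unadjusted p under 0.05, and without animal 5 the calls numbered 1. Among the genes whose hemispheric difference varied most between animals was Ifi205, an interferon-inducible gene, with 0.94 and 1.18 in animals 2 and 4 and 0.18 to 0.49 in the others (0.61 ± 0.15, adjusted p = 0.016). Its call was lost without animal 2, 3 or 4 (adjusted p 0.082, 0.0503 and 0.067).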
